A study of Homo sapiens with 16 samples.

Results

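The 38 genes described here belong to glycolysis and to the transcriptional response to low oxygen. They comprised 4 glucose and lactate transporters, 17 glycolytic enzymes, 4 glycolysis regulators, 12 non-glycolytic targets of the hypoxia-inducible factors (HIF) and the HIF subunit HIF1A. All 38 symbols were among the 23354 genes of the read count table. The set was named by symbol with earlier results of these libraries in view, among them a lower level of glycolytic transcripts with TAK-981 against vehicle, so the members were chosen by measured values of that contrast, which is given as a description without a test. Total RNA from the human multiple myeloma lines MM1S, labelled glucocorticoid sensitive, and MM1R, labelled glucocorticoid resistant, was sequenced in 16 libraries, 2 for each of 8 groups. Each line had received vehicle, 0.1 μM TAK-981, 1 μM dexamethasone (Dex), or 0.1 μM TAK-981 together with 1 μM Dex (the combination), the drug exposures lasting 48 h; the labels give no time for vehicle. TAK-981 is an inhibitor of the SUMO-activating enzyme, which starts the attachment of the small protein SUMO to other proteins, and Dex is a glucocorticoid used against myeloma. The lines were established from the same patient's tumour, each stands as a single line for its phenotype, and the labels describe the 2 libraries of a group only as duplicates, so p-values measure the spread between these libraries, which may be technical.

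Glycolysis splits glucose into pyruvate in the cytosol. Transporters admit the sugar, hexokinase and phosphofructokinase commit it to breakdown, later enzymes from aldolase to pyruvate kinase yield ATP, and lactate dehydrogenase turns pyruvate into lactate, which monocarboxylate transporters export. HIF consists of an oxygen-labile alpha subunit and a stable partner; prolyl hydroxylases mark the alpha subunit for destruction in normal oxygen, and when they slow down HIF binds DNA at a short core, ACGTG or GCGTG, near genes for glycolysis, blood vessel growth, mitophagy and collagen maturation. MYC and its relatives bind CACGTG near many of the same glycolytic genes. Myeloma cells grow in poorly oxygenated marrow and secrete large amounts of protein, and they use glycolysis heavily.

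Libraries held 15707587 to 20644510 counts in MM1S and 18987739 to 24796539 in MM1R, and 14215 genes passed the filter on low counts. 36 of the 38 members passed it: PFKP, a phosphofructokinase, reached at most 0.371 CPM (counts scaled to a common effective library size) and BNIP3, a mitophagy receptor, at most 0.0985 CPM, and neither is considered further. The labelled identity was checked against markers: all 8 plasma cell markers were expressed, SDC1 at 495 to 973 CPM, whereas the B cell genes MS4A1 and PAX5 stayed at or below 0.542 CPM although the labels also carry the term B lymphoblast. The T cell gene CD3D and the erythroid gene HBA2 were at 0 counts in every library, while CD3E reached 5.33 CPM, HBB 12.4 CPM and PDGFRB 2.82 CPM. Replicates of MM1S TAK-981 and of MM1S Dex differed more than those of other groups, with chi-square values over their degrees of freedom of 22.7 and 20.5 against 2.16 to 9.70. In MM1S TAK-981, replicate 2 was higher than replicate 1 for 32 of the 36 members, by a median log2 difference of 0.30 for the enzymes and 0.45 for the HIF targets against 0.02 for all genes. All 16 tested enzymes were higher in replicate 2 also in MM1S Dex (median 0.13), MM1R Dex (0.13) and MM1R TAK-981 (0.065), while in MM1S vehicle 4 of the 36 members were higher in replicate 2 (median −0.12). The share of counts from MALAT1, a nuclear RNA, was on average 2.93% to 3.36% in the vehicle and Dex groups and 5.26% to 6.07% in the groups with TAK-981, and its part in the results was not tested. In bulk RNA, fewer cells that express a gene and less of its RNA per cell cannot be told apart.

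Promoter windows from 250 bases before to 50 bases after the annotated start were matched by symbol in RefSeq (GRCh38.p14) for 33 of the 38 members, and were searched on both strands. The HIF core ACGTG was in 24 of 61 windows of the members (39.3%) and in 21.4% of all 35116 windows; among roles it was in 15 of 37 enzyme windows (40.5%), 5 of 10 HIF target windows, 3 of 6 regulator windows, 1 of 6 transporter windows and 0 of 2 HIF1A windows. The core GCGTG was in 42.6% of members' windows and 36.5% of all windows, and CACGTG, which contains ACGTG, was in 13.1% and 7.26%. Windows of one gene overlap in part, so these shares are descriptions. Below are the matches nearest the results: 4 enzymes and a lactate exporter with unlike values below, then PDK3, P4HA1 and ANKRD37, whose response to the combination against Dex differed between the lines, and MIR210HG. Capitals mark ACGTG as read on either strand (CACGT is its reverse complement), or CACGTG in GAPDH. Each line gives the strand of the gene and how far upstream of an annotated start the match lies. PFKM had 7 annotated starts, SLC16A3 had 5 and LDHA had 2, and the upstream match closest to any of them is shown. Whether these cells use that start was not tested. Of other members given in every library, PFKFB4, KDM3A, EGLN3 and HIF1A had no upstream match with 10 bases before it. SLC16A1, BNIP3L and VEGFA had no window.
GAPDH, chr12:6535173-6535198, plus strand, 81 bases upstream: tctgcggggtCACGTGtcgcagagga
LDHA, chr11:18394480-18394504, plus strand, 73 bases upstream: tgggttcccgCACGTccgccggccc
ENO2, chr12:6914452-6914476, plus strand, 118 bases upstream: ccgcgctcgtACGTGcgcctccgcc
PFKM, chr12:48105349-48105373, plus strand, 122 bases upstream: atccagagatCACGTtagggtacac
SLC16A3, chr17:82228977-82229001, plus strand, 55 bases upstream: tgcgcgggggACGTGccgcgccagc
PDK3, chrX:24465215-24465239, plus strand, 61 bases upstream: cgcgccgcgtACGTGcagcaaccga
P4HA1, chr10:73096938-73096962, minus strand, 86 bases upstream: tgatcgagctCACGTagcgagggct
ANKRD37, chr4:185396688-185396712, plus strand, 143 bases upstream: gtgtttgtgtACGTGcggccgtggc
MIR210HG, chr11:568613-568637, minus strand, 170 bases upstream: ccccgggcagACGTGcagaaaagaa

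For the combination against Dex, the same core lies beside genes that fell in both lines (GAPDH, LDHA, ENO2), that were not called in either (PFKM) and that rose in both (SLC16A3). A match is only a run of letters in this window and says nothing about whether a factor binds there.

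With vehicle, enzymes held the highest levels among the members per kilobase of gene model. In MM1S the glyceraldehyde phosphate dehydrogenase GAPDH led at 1040.3 ± 42.2 CPM per kb (mean ± SD, n = 2), followed by the lactate dehydrogenase subunits LDHA at 392 ± 45.9 and LDHB at 358 ± 4.78 CPM per kb, whose spreads overlapped. Then came the phosphoglycerate kinase PGK1 at 237 ± 17.3, the aldolase ALDOA at 207 ± 4.38, the enolase ENO1 at 200.2 ± 9.32, the triose phosphate isomerase TPI1 at 196 ± 12.8 and the pyruvate kinase PKM at 184 ± 4.93 CPM per kb. In MM1R GAPDH stood at 1247 ± 15.7, LDHB at 458 ± 5.71 and LDHA at 315 ± 1.36 CPM per kb. The most abundant member outside the enzymes was ADM, the peptide adrenomedullin, at 143 ± 0.269 CPM per kb in MM1S. Genes such as GAPDH and LDHA have many processed pseudogenes, and others such as PGK1 and ENO1 have some. Reads could therefore be split or shared, and the levels of such genes are uncertain to that extent.

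Between the vehicle libraries of the lines, most of the HIF targets and all 4 regulators were called. In the fit over all genes (edgeR quasi-likelihood test, Benjamini-Hochberg adjusted p under 0.05, used throughout), 8 of 11 HIF targets were lower in MM1R and 0 higher, and of 16 enzymes 1 was lower and 4 were higher. Over all genes 22.6% were lower and 25.6% higher. These vehicle libraries were part of the contrast in view when the genes were chosen, so the calls are not independent of that choice. The median log2 difference, MM1R minus MM1S, was −0.68 for HIF targets, 0.028 for enzymes and 0.0068 for all genes. The HIF targets called were MIR210HG (−2.59 ± 0.34, log2 ± SE), the precursor of the hypoxia-induced microRNA miR-210, the mitophagy receptor BNIP3L (−1.44 ± 0.082, adjusted p = 1.83e-10), the collagen prolyl hydroxylase subunits P4HA1 (−1.27 ± 0.11) and P4HA2 (−0.46 ± 0.15), the stress-induced NDRG1 (−1.17 ± 0.11), the histone demethylase KDM3A (−0.83 ± 0.068, adjusted p = 2.04e-08), the ankyrin repeat gene ANKRD37 (−0.68 ± 0.11) and the HIF prolyl hydroxylase EGLN1 (−0.32 ± 0.068). VEGFA, the vascular growth factor, was not called (−0.072 ± 0.11). BNIP3L stood at 114 and 105 CPM in MM1S vehicle and 42.1 and 38.7 CPM in MM1R vehicle. KDM3A stood at 267 and 231 CPM and 146 and 135 CPM. For both genes every MM1R vehicle library was below every MM1S one.

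Transporters were divided between the lines. The lactate exporter SLC16A3 was at 34.2 and 32.7 CPM in MM1S and 16.5 and 16.8 CPM in MM1R vehicle libraries (log2 difference −1.01 ± 0.083, adjusted p = 2.21e-08), whereas the monocarboxylate transporter SLC16A1 (0.39 ± 0.056) and the glucose transporter SLC2A3 (0.60 ± 0.094) were higher in MM1R. Among regulators, PFKFB4 (−1.68 ± 0.26) and PFKFB3 (−0.79 ± 0.14), which set the level of the activator of phosphofructokinase, were lower in MM1R, as was PDK3 (−0.33 ± 0.066), while PDK1 (0.23 ± 0.073) was higher; PDK kinases hold pyruvate out of the mitochondrial cycle. The enzymes called higher in MM1R were GAPDH (0.26 ± 0.068), LDHB (0.36 ± 0.081), ENO1 (0.34 ± 0.092) and the phosphoglucose isomerase GPI (0.30 ± 0.059), and LDHA was lower (−0.32 ± 0.10, adjusted p = 0.0168). The LDHA call was lost without MM1S vehicle replicate 1 (adjusted p = 0.22), without MM1R vehicle replicate 1 (adjusted p = 0.0719) or without MM1R vehicle replicate 2 (adjusted p = 0.0703). The GAPDH call was lost without MM1S vehicle replicate 2 (adjusted p = 0.056). The HIF target median ran, with 1 library left out, from −0.88 without MM1R vehicle replicate 1 to −0.54 without MM1S vehicle replicate 1.

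TAK-981 alone is the contrast that was in view when the genes were chosen, so the values that follow only describe it, and nothing is read from the counts of members past the threshold. In MM1S, 14 of 16 enzymes were past the adjusted threshold and lower, and 1 higher; in MM1R 14 were lower and 0 higher. Of 11 HIF targets, 6 were lower and 0 higher in MM1S, and 3 lower and 2 higher in MM1R. For comparison, 23.7% of the genes tested lay lower and 25.2% higher in MM1S, while MM1R had 27.6% and 25.8%. The enzymes lower in both lines numbered 13 and the members 19, with 18.9% of all genes lower in both; 0 members and 17.5% of all genes were higher in both. The median log2 fold change was −0.73 for enzymes and −0.26 for HIF targets in MM1S against 0.037 for all genes, and −0.65, −0.11 and 0.0043 in MM1R. In MM1S, leaving out TAK-981 replicate 1 gave a median of −0.59 for enzymes and −0.20 for HIF targets with 24 of 36 members lower, and leaving out replicate 2 gave −0.84 and −0.33 with 28 lower, beside 26 with both.

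LDHA, which makes lactate from pyruvate, stood in MM1S at 1079.9 and 915 CPM with vehicle and 353 and 454 CPM with TAK-981 (log2 fold change −1.31), and in MM1R at 799 and 804 CPM with vehicle and 391 and 426 CPM with TAK-981 (−0.97). GAPDH stood at 1712 and 1617 CPM against 932 and 1045 CPM in MM1S (−0.75) and at 1978 and 2013 against 1153 and 1239.8 CPM in MM1R (−0.74). Neither gene's groups overlapped in either line. The hexokinase HK2 had a log2 fold change of −1.17 in MM1S and −0.78 in MM1R, PKM of −1.02 and −0.78, and TPI1 of −0.82 and −0.77. The muscle-type phosphofructokinase PFKM went against the other enzymes in MM1S, with 129 and 136 CPM with vehicle and 154 and 174 CPM with TAK-981. Reads of PFKM overlap SENP1, a SUMO protease gene on the opposite strand with on average 1368 counts beside 3005 for PFKM, and the strand setting of the counting is not given in the sources used here. ENO2 stood at 332 and 315 CPM with vehicle and 161 and 196 CPM with TAK-981 in MM1S, and at 357 and 367 CPM and 183 and 186 CPM in MM1R. In MM1R PFKM stood at 148 and 151 CPM with vehicle and 146 and 151 CPM with TAK-981, and these overlapped. ALDOC, a second aldolase, and HK1 gave a log2 fold change of −0.44 and −0.013 in MM1S and −0.028 and −0.43 in MM1R.

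Outside the enzymes, SLC16A1 was at 63.9 and 65.1 CPM with TAK-981 in MM1S beside 108 and 106 CPM with vehicle, and at 82.9 and 83.7 CPM in MM1R beside 141 and 139 CPM. PFKFB4 was at 3.32 and 9.83 CPM with TAK-981 in MM1S beside 24.0 and 20.5 CPM, and at 2.63 and 3.65 CPM in MM1R beside 7.15 and 6.72 CPM. For both genes each TAK-981 library was below each vehicle library. MIR210HG was at 5.50 and 15.2 CPM in MM1S beside 22.0 and 18.05 CPM, and at 2.31 and 3.60 CPM in MM1R across its vehicle values of 3.51 and 3.13 CPM. VEGFA was at 51.6 and 71.4 CPM in MM1S beside 80.5 and 73.4 CPM, and at 63.2 and 72.0 CPM in MM1R beside 74.1 and 72.3 CPM. Both were lower in MM1S TAK-981 replicate 1 than in replicate 2. ANKRD37 was at 15.8 and 17.3 CPM in MM1S and 9.23 and 10.98 CPM in MM1R with TAK-981, beside 21.7 and 18.05 CPM and 12.1 and 12.7 CPM with vehicle. PDK3 was at 106 and 101 CPM and 91.9 and 89.7 CPM, beside 123 and 111 CPM and 94.9 and 90.9 CPM. In MM1R the PDK3 groups overlapped.

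SLC16A3, BNIP3L, P4HA1 and KDM3A were the members whose TAK-981 effect was called as different between the lines (MM1R minus MM1S), all more positive in MM1R. They were 4 of 36 members, beside 4.16% of all genes, of which 3.19% more positive and 0.978% more negative. As this difference is built from the contrast in view, it is given with its test but is not independent of the choice. SLC16A3 was at 30.9 and 34.8 CPM with TAK-981 in MM1S, across its vehicle values, and at 23.6 and 25.2 CPM in MM1R, above both vehicle libraries (difference 0.58 ± 0.12, adjusted p = 0.00791). BNIP3L gave 102 and 101 CPM and 61.8 and 59.7 CPM (difference 0.70 ± 0.11, adjusted p = 0.00173), and KDM3A 209 and 212 CPM and 168 and 169.9 CPM (0.51 ± 0.10, adjusted p = 0.00481). In each of these the MM1R libraries lay above their vehicle. P4HA1 was lower in MM1S, from 181 and 151 to 82.7 and 113 CPM, and stayed at 63.6 and 64.4 CPM in MM1R beside 69.5 and 68.2 CPM (difference 0.66 ± 0.16, adjusted p = 0.0265). The P4HA1 call for the line difference was lost without MM1S vehicle replicate 1 (adjusted p = 0.145), without MM1R vehicle replicate 1 (adjusted p = 0.0815), without MM1R vehicle replicate 2 (adjusted p = 0.112), without MM1R TAK-981 replicate 1 (adjusted p = 0.097) or without MM1R TAK-981 replicate 2 (adjusted p = 0.0898). The SLC16A3 call for the line difference was lost without MM1S vehicle replicate 1 (adjusted p = 0.0523) or without MM1R TAK-981 replicate 2 (adjusted p = 0.0539). The KDM3A call for the line difference was lost without MM1R vehicle replicate 2 (adjusted p = 0.0509). In the main fit no enzyme was called as different between the lines. Under some alternative settings LDHA, ENO2 and PFKM passed. With 1 library left out, their differences ran from 0.16 to 0.53, −0.25 to 0.031 and −0.40 to −0.22. The count of 4 was 2 without MM1S vehicle replicate 1, MM1R vehicle replicate 2 or MM1R TAK-981 replicate 2, 8 without MM1S TAK-981 replicate 1 and 13 without MM1S TAK-981 replicate 2.

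**Figure D1:**
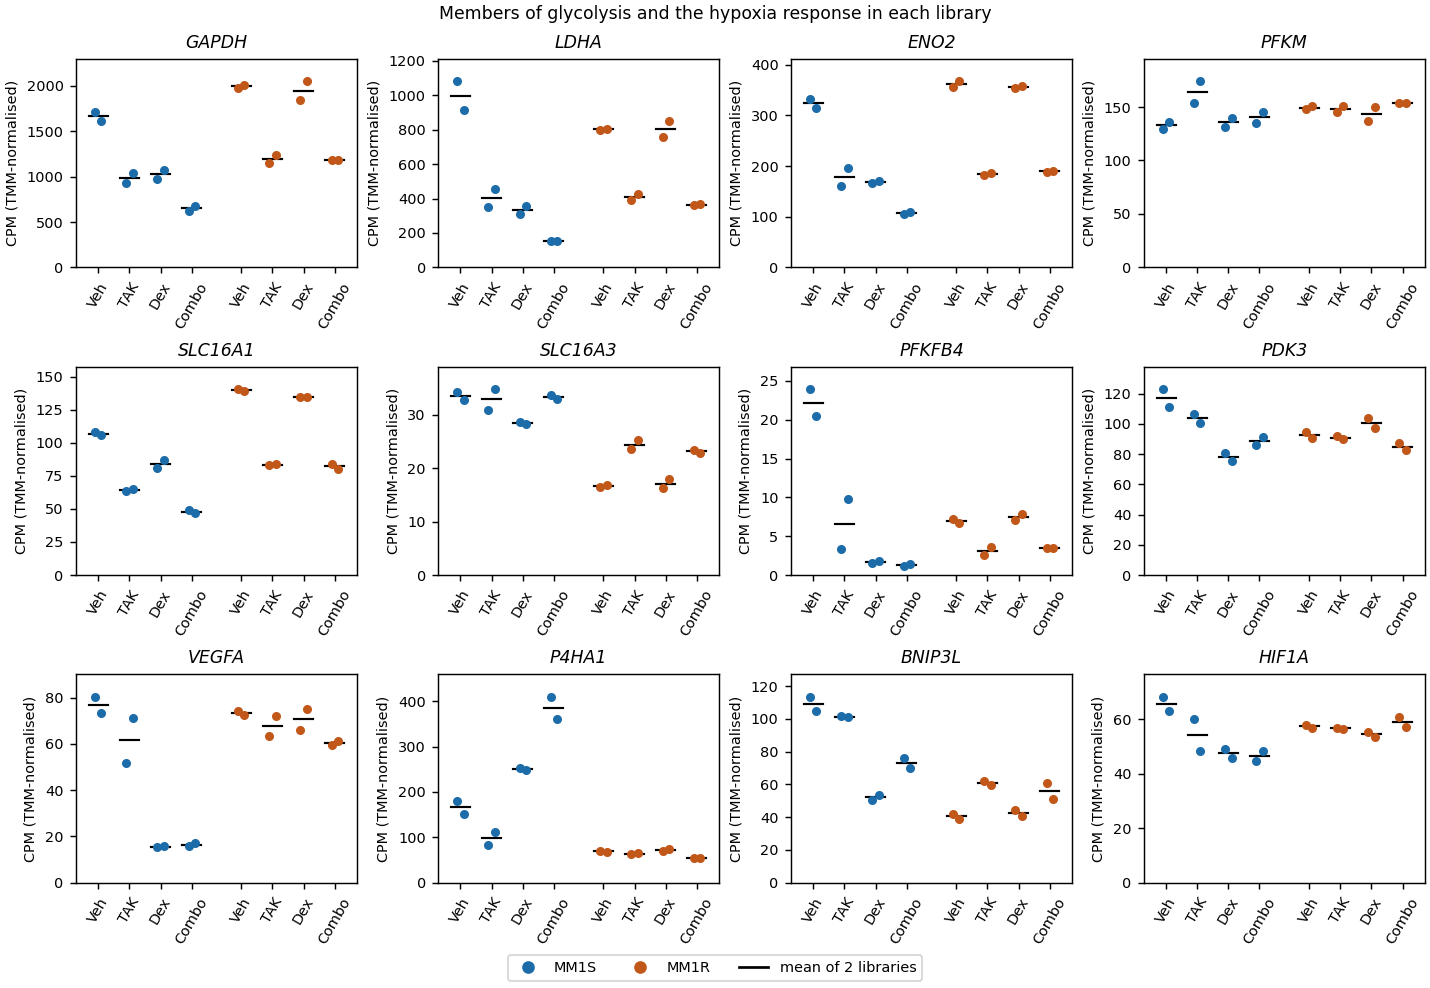
Level of 12 members in CPM (linear axis from 0) in each of the 16 libraries, by line and treatment; points are libraries and bars are means of 2. LDHA, GAPDH and ENO2 step down with TAK-981 in both lines and with Dex in MM1S, PFKM stays between 129 and 174 CPM, and P4HA1 reaches 360.5 to 410.4 CPM in MM1S with the combination.

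The combination against Dex measured TAK-981 again, in libraries that the previous contrast did not use. The genes were chosen with earlier results of all these libraries known. Its calls therefore need not be independent of that choice either. Enzymes fell in both lines: 13 of 16 fell and 0 rose in MM1S, and 14 fell and 0 rose in MM1R, with 13 falling in both. HIF targets were mixed, with 4 of 11 rising and 2 falling in MM1S, and 1 rising and 6 falling in MM1R. Over all genes 25.4% fell and 22.2% rose in MM1S, 25.3% fell and 23.1% rose in MM1R, 17.5% fell in both and 13.7% rose in both; 18 of 36 members fell in both, 2 rose in both and 3 were called in opposite directions. Medians were −0.59 for enzymes, 0.19 for HIF targets and 0.0065 for all genes in MM1S, and −0.58, −0.25 and 0.0026 in MM1R. Over the 36 members, 19 fell and 6 rose in MM1S; without Dex replicate 1 it was 19 and 5, and without Dex replicate 2 it was 16 and 3. In MM1R 25 fell and 2 rose. Read library by library, 14 of 16 enzymes had both combination libraries below both Dex libraries in MM1S and 15 in MM1R, beside 35.8% and 38.5% of all genes, and 6 and 3 of 11 HIF targets had both above, beside 35.7% and 37.6%, and 3 and 7 had both below.

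LDHA showed the most negative mean change of the enzymes. In MM1S it went from 311 and 355 CPM with Dex to 151 and 150.5 CPM with the combination (−1.14 ± 0.10, adjusted p = 1.73e-07). In MM1R it went from 757 and 851 to 359.7 and 368 CPM (−1.14 ± 0.10, adjusted p = 1.34e-07). Its partner subunit LDHB, which favours the reverse reaction, fell by less, with −0.54 ± 0.081 and −0.56 ± 0.081. GAPDH went from 979 and 1076 to 627 and 671 CPM in MM1S (−0.66 ± 0.069, adjusted p = 3.15e-07). In MM1R it went from 1846 and 2049 to 1189 and 1186 CPM (−0.71 ± 0.069, adjusted p = 1.18e-07). ENO2, an enolase, went from 167 and 170.0 to 106 and 109 CPM in MM1S (−0.65 ± 0.072, adjusted p = 7.36e-07). In MM1R it went from 354 and 358 to 189 and 191 CPM (−0.91 ± 0.070, adjusted p = 6.58e-09). For these 3 enzymes the groups did not overlap in either line.

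The other enzymes that fell in both lines, given as log2 fold changes in MM1S and then MM1R, were PKM (−0.96 and −0.72), HK2 (−0.76 and −0.79), ENO1 (−0.76 and −0.60), TPI1 (−0.64 and −0.76), PGK1 (−0.64 and −0.39), ALDOA (−0.44 and −0.62), GPI (−0.48 and −0.51), the phosphoglycerate mutase PGAM1 (−0.46 and −0.53) and the liver-type phosphofructokinase PFKL (−0.32 and −0.43). HK1 fell in MM1R (−0.27 ± 0.086) and was not called in MM1S (−0.14 ± 0.089). PFKM stood at 131 and 139.9 CPM with Dex and 135 and 145 CPM with the combination in MM1S (0.048 ± 0.070) and at 137 and 150.1 CPM with Dex and 154 and 153 CPM with the combination in MM1R (0.10 ± 0.069), and was called in neither. ALDOC was not called either, with −0.10 ± 0.14 and −0.10 ± 0.11. Thus the uncalled enzymes in both lines were PFKM and ALDOC.

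The lactate transporters moved in opposite directions. SLC16A1 fell from 81.2 and 87.3 to 49.1 and 46.8 CPM in MM1S (−0.81 ± 0.060, adjusted p = 3.24e-09). In MM1R it fell from 135 and 135 to 83.9 and 80.4 CPM (−0.71 ± 0.056, adjusted p = 8.69e-09). SLC16A3 rose from 28.6 and 28.2 to 33.7 and 32.9 CPM in MM1S (0.23 ± 0.081, adjusted p = 0.0273). In MM1R it rose from 16.3 and 17.9 to 23.5 and 22.8 CPM (0.43 ± 0.085, adjusted p = 0.00036). The SLC16A3 call in MM1S was lost without MM1S Dex replicate 1 (adjusted p = 0.0638), without MM1S Dex replicate 2 (adjusted p = 0.103), without MM1S combination replicate 1 (adjusted p = 0.113) or without MM1S combination replicate 2 (adjusted p = 0.065). Groups did not overlap for either gene. Of the glucose transporters, SLC2A1 fell in both lines (−0.56 ± 0.082 and −0.58 ± 0.077), while SLC2A3 fell in MM1S (−0.29 ± 0.11) and was not called in MM1R (0.080 ± 0.091).

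Of the 4 regulators, 1 fell and 1 rose in MM1S, and 3 fell and 0 rose in MM1R. PDK1 fell in both (−0.35 ± 0.075 and −0.49 ± 0.073). PDK3 rose in MM1S, from 80.6 and 75.2 to 85.8 and 91.3 CPM (0.18 ± 0.068, adjusted p = 0.0329). It fell in MM1R, from 104 and 97.5 to 87.0 and 82.9 CPM (−0.25 ± 0.067, adjusted p = 0.00509), and the lines' effects differed (−0.43 ± 0.10, adjusted p = 0.00473). The PDK3 call in MM1S was lost without MM1S Dex replicate 2 (adjusted p = 0.232) or without MM1S combination replicate 2 (adjusted p = 0.202). The PDK3 call in MM1R was lost without MM1R Dex replicate 1 (adjusted p = 0.062) or without MM1R combination replicate 2 (adjusted p = 0.059). PFKFB4 was at 1.503 and 1.76 CPM with Dex and 1.18 and 1.43 CPM with the combination in MM1S, a low level in both groups (−0.32 ± 0.58, not called). In MM1R it fell from 7.04 and 7.86 to 3.44 and 3.42 CPM (−1.12 ± 0.33, adjusted p = 0.012). The PFKFB4 call in MM1R was lost without MM1R Dex replicate 2 (adjusted p = 0.0684), without MM1R combination replicate 1 (adjusted p = 0.0574) or without MM1R combination replicate 2 (adjusted p = 0.0542). PFKFB3 was called in neither line (−0.054 ± 0.15 and −0.37 ± 0.15).

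Among HIF targets, P4HA2 (−0.72 ± 0.19 and −0.66 ± 0.16) and ADM (−0.34 ± 0.11 and −0.59 ± 0.11) fell in both lines. BNIP3L rose in both, from 50.7 and 53.8 to 75.9 and 69.8 CPM in MM1S (0.48 ± 0.083, adjusted p = 0.000126) and from 44.4 and 40.5 to 61.1 and 51.2 CPM in MM1R (0.41 ± 0.084, adjusted p = 0.000569). P4HA1 rose in MM1S, from 252 and 249 to 410.4 and 360.5 CPM (0.62 ± 0.11, adjusted p = 0.000153). It fell in MM1R, from 70.5 and 74.2 to 54.4 and 54.4 CPM (−0.41 ± 0.11, adjusted p = 0.00671). ANKRD37 rose in MM1S, from 5.75 and 6.61 to 8.61 and 9.46 CPM (0.55 ± 0.14, adjusted p = 0.00393). It fell in MM1R, from 11.8 and 13.0 to 8.69 and 9.39 CPM (−0.45 ± 0.12, adjusted p = 0.00483). The P4HA1 call in MM1R was lost without MM1R Dex replicate 2 (adjusted p = 0.0519). The ANKRD37 call in MM1R was lost without MM1R Dex replicate 2 (adjusted p = 0.0521) or without MM1R combination replicate 1 (adjusted p = 0.0543). The lines' effects differed for P4HA1 (−1.03 ± 0.16, adjusted p = 0.000232) and ANKRD37 (−1.003 ± 0.19, adjusted p = 0.00111), which with PDK3 made 3 of 36 members, all more negative in MM1R. Over all genes the share was 12.7%, of which 8.93% more positive and 3.76% more negative. Without MM1S Dex replicate 1 the count was 5. ANKRD37 overlaps UFSP2 on the opposite strand, with on average 1045 counts for UFSP2 beside 247.

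MIR210HG had the most negative mean change of the HIF targets, which came from MM1R, where it went from 3.89 and 5.59 to 1.04 and 0.867 CPM (−2.30 ± 0.53, adjusted p = 0.00276). In MM1S it stood at 1.45 and 1.82 CPM with Dex and 1.67 and 1.48 CPM with the combination (−0.056 ± 0.64, not called). Its line difference was −2.25 ± 0.86, adjusted p = 0.116, which did not pass. KDM3A rose in MM1S, from 150.2 and 143 to 169 and 166 CPM (0.19 ± 0.068, adjusted p = 0.0254), and in MM1R it stood at 139 and 148 CPM with Dex and 154 and 159.6 CPM with the combination (0.12 ± 0.068, not called). The KDM3A call in MM1S was lost without MM1S Dex replicate 2 (adjusted p = 0.162), without MM1S combination replicate 1 (adjusted p = 0.108) or without MM1S combination replicate 2 (adjusted p = 0.0687). VEGFA stood at 15.3 and 15.9 CPM with Dex and 15.8 and 17.2 CPM with the combination in MM1S and at 65.9 and 75.2 CPM with Dex and 59.5 and 61.4 CPM with the combination in MM1R, with no call in either (0.082 ± 0.15 and −0.22 ± 0.11). NDRG1 was not called (0.28 ± 0.11 and 0.20 ± 0.11), and EGLN1 fell in MM1R (−0.25 ± 0.068) without a call in MM1S (−0.090 ± 0.069). EGLN3, a second HIF prolyl hydroxylase, had the highest mean change of the HIF targets but rested on few reads: 9 and 5 counts with Dex and 8 and 15 with the combination in MM1S, and 3 and 5 against 4 and 5 in MM1R. Vehicle gave 3 and 4 counts in MM1S and 5 and 2 in MM1R, and TAK-981 3 and 9, and 4 and 7. For the combination against Dex no difference in EGLN3 was detectable at that depth.

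**Figure D2:**
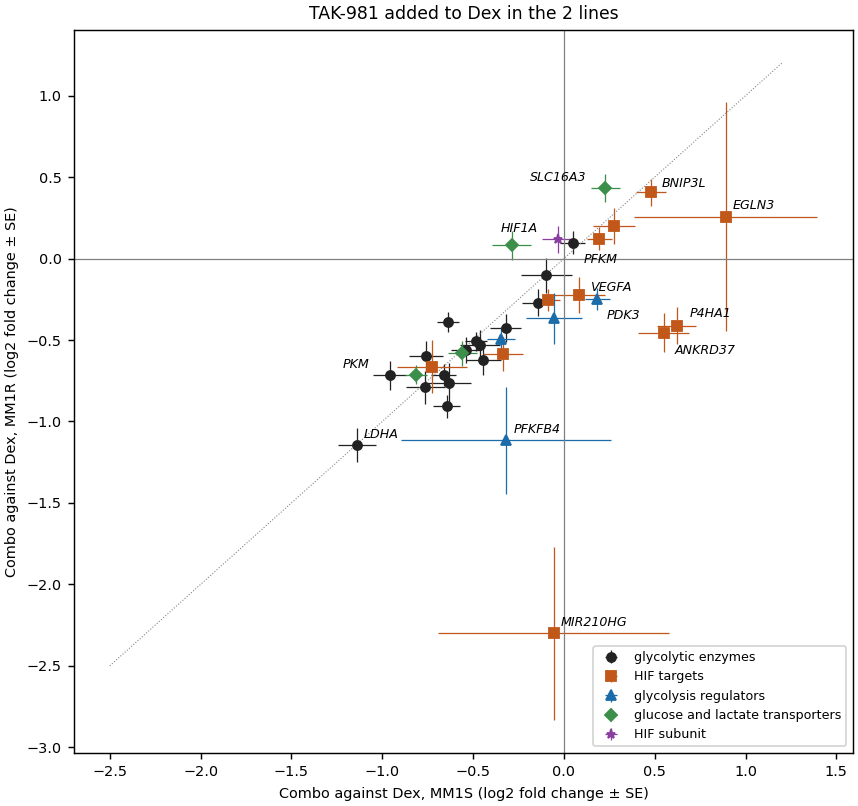
Log2 fold change of the combination against Dex in MM1S (x axis) and MM1R (y axis) for the 36 tested members, with standard errors and the dotted line of equal change. Enzymes from LDHA to PFKL lie low in both lines, while P4HA1, ANKRD37 and PDK3 lie to the right of 0 and below it.

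With Dex alone most members fell in MM1S and none was called in MM1R. In MM1S 13 of 16 enzymes, 4 of 4 regulators, 3 of 4 transporters and 9 of 11 HIF targets fell, and 1 member rose, P4HA1. Over all genes 21.5% fell and 20.8% rose. In MM1R the edgeR test called 0 members and 0 genes, with 0 members and 395 genes at an unadjusted p under 0.05 and 0 members called by DESeq2. Median log2 fold changes in MM1S were −0.69 for enzymes, −0.94 for HIF targets and 0.011 for all genes, and in MM1R −0.044, 0.034 and −0.012. The Dex effect differed between the lines for 27 of 36 members, 11 of them enzymes, beside 28.1% of all genes. Dex against vehicle and the combination against Dex share the Dex libraries, so their values are not independent. Dex against vehicle also uses the vehicle libraries of the contrast in view when the genes were chosen. Its calls and their line differences are therefore not independent of that choice.

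PFKFB4 and MIR210HG had the most negative changes. PFKFB4 fell in MM1S from 24.0 and 20.5 CPM with vehicle to 1.503 and 1.76 CPM with Dex (−3.76 ± 0.34, adjusted p = 6.14e-07), and in MM1R it stood at 7.15 and 6.72 CPM with vehicle and 7.04 and 7.86 CPM with Dex. MIR210HG went from 22.0 and 18.05 to 1.45 and 1.82 CPM in MM1S (−3.61 ± 0.40, adjusted p = 7.21e-06) and stood at 3.51 and 3.13 CPM with vehicle and 3.89 and 5.59 CPM with Dex in MM1R. VEGFA went from 80.5 and 73.4 to 15.3 and 15.9 CPM in MM1S (−2.30 ± 0.13, adjusted p = 3.28e-10) and stood at 74.1 and 72.3 CPM with vehicle and 65.9 and 75.2 CPM with Dex in MM1R. In MM1S the Dex libraries of these 3 genes lay far below vehicle, while in MM1R the groups overlapped or lay close. ANKRD37 went from 21.7 and 18.05 to 5.75 and 6.61 CPM (−1.68 ± 0.13, adjusted p = 4.06e-09), BNIP3L to 50.7 and 53.8 CPM (−1.06 ± 0.082, adjusted p = 5.66e-09) and KDM3A to 150.2 and 143 CPM (−0.77 ± 0.068, adjusted p = 4.02e-08). NDRG1 (−1.23), P4HA2 (−0.94), ADM (−0.87) and EGLN1 (−0.19) fell too. P4HA1 rose to 252 and 249 CPM (0.59 ± 0.11, adjusted p = 0.000286).

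Of the enzymes, LDHA fell from 1079.9 and 915 to 311 and 355 CPM in MM1S (−1.58 ± 0.10, adjusted p = 3.02e-09) and stood at 799 and 804 CPM with vehicle and 757 and 851 CPM with Dex in MM1R (0.0045 ± 0.10). ENO2 fell to 167 and 170.0 CPM in MM1S (−0.94 ± 0.070, adjusted p = 4.01e-09), and GAPDH to 979 and 1076 CPM (−0.70 ± 0.069, adjusted p = 1.72e-07), while in MM1R ENO2 gave 354 and 358 CPM and GAPDH 1846 and 2049 CPM, around their vehicle values. ALDOC, which was not called for the combination against Dex, fell by 1.54 on the log2 scale. PKM (−1.003), TPI1 (−0.89), ALDOA (−0.75), PGAM1 (−0.71), HK2 (−0.68), GPI (−0.57), PGK1 (−0.50), ENO1 (−0.41) and LDHB (−0.30) fell as well. The uncalled enzymes were PFKL (0.088 ± 0.085), PFKM (0.030 ± 0.069) and HK1 (−0.016 ± 0.087). Among the rest, PDK1 (−0.89), PFKFB3 (−0.69), PDK3 (−0.59; 123 and 111 to 80.6 and 75.2 CPM), SLC16A1 (−0.34; 108 and 106 to 81.2 and 87.3 CPM), SLC2A1 (−0.24) and SLC16A3 (−0.24 ± 0.080, adjusted p = 0.0245) fell. The SLC16A3 call was lost without MM1S vehicle replicate 1 (adjusted p = 0.148), without MM1S vehicle replicate 2 (adjusted p = 0.0506), without MM1S Dex replicate 1 (adjusted p = 0.0602) or without MM1S Dex replicate 2 (adjusted p = 0.0789).

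**Figure D3:**
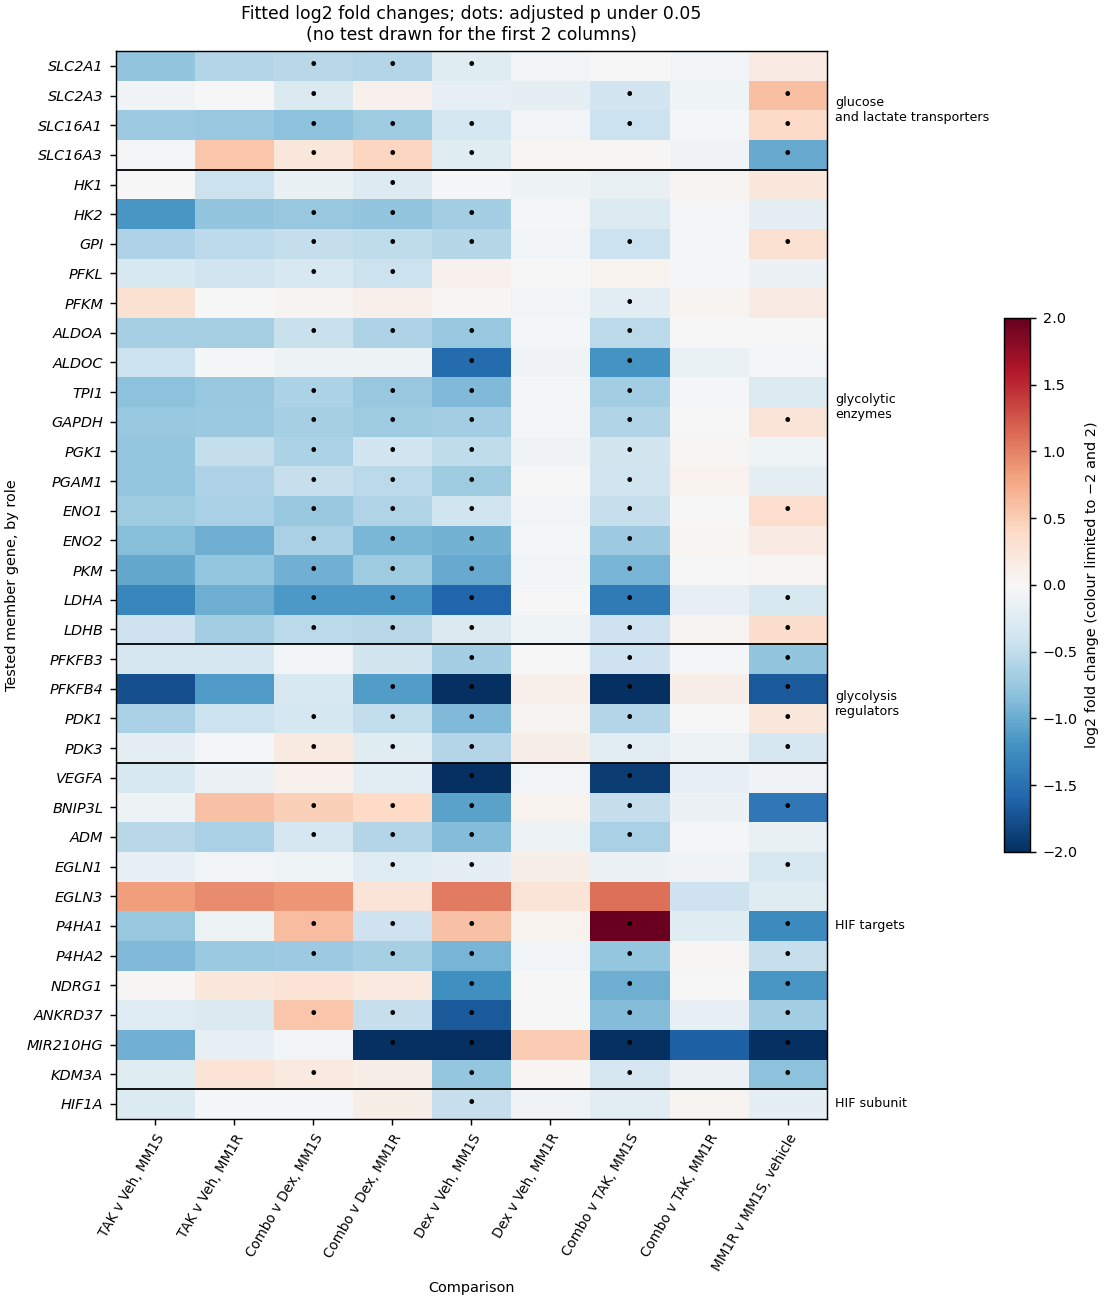
Log2 fold change of the 36 tested members (rows, by role) in 9 comparisons (columns), coloured blue to red and limited to −2 to 2; dots mark an adjusted p under 0.05 and are left out of the columns of TAK-981 against vehicle. The Dex column is blue for most members in MM1S and has no dot in MM1R.

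Adding Dex to TAK-981 lowered 27 members in MM1S and raised 1, beside 20.6% and 14.5% of all genes. 13 of 16 enzymes and 8 of 11 HIF targets fell. The TAK-981 libraries were part of the contrast in view when the genes were chosen, so these calls are not independent of that choice. In MM1R edgeR called 0 members and 0 genes, with 1 member and 214 genes at an unadjusted p under 0.05 and 0 members called by DESeq2. P4HA1 was the member that rose, from 82.7 and 113 CPM with TAK-981 to 410.4 and 360.5 CPM with the combination (1.98 ± 0.11, adjusted p = 4.75e-10). LDHA fell from 353 and 454 to 151 and 150.5 CPM (−1.42 ± 0.11, adjusted p = 1.79e-08) and VEGFA from 51.6 and 71.4 to 15.8 and 17.2 CPM (−1.90 ± 0.13, adjusted p = 4.99e-09). PFKFB4 went from 3.32 and 9.83 to 1.18 and 1.43 CPM and MIR210HG from 5.50 and 15.2 to 1.67 and 1.48 CPM, in both cases with TAK-981 replicates that differed widely from each other. PFKM fell from 154 and 174 to 135 and 145 CPM (−0.22 ± 0.069, adjusted p = 0.0168). The PFKM call was lost without MM1S TAK-981 replicate 2 (adjusted p = 0.179) or without MM1S combination replicate 1 (adjusted p = 0.142). In MM1R MIR210HG stood at 2.31 and 3.60 CPM with TAK-981 and 1.04 and 0.867 CPM with the combination, both combination libraries being lower (−1.63 ± 0.59, adjusted p = 1), and it was called without the filter on low counts and in the fit of only the groups compared. LDHA stood in MM1R at 391 and 426 CPM with TAK-981 and 359.7 and 368 CPM with the combination.

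In MM1S the enzymes had, as a sum, their smallest share of counts with the combination, though PFKL was lowest with TAK-981 and PFKM with vehicle. Vehicle and combination libraries are shared with the comparisons above, so these values restate them end to end. In all 31 of 36 members were lower and 2 higher in MM1S, beside 29.5% and 30.8% of all genes, and 25 lower and 2 higher in MM1R, beside 26.7% and 24.8%. The enzyme median was −1.18 in MM1S and −0.65 in MM1R. The 17 enzymes together took 0.788% ± 0.0392 of counts in MM1S with vehicle (SD, n = 2), 0.454% ± 0.0482 with TAK-981, 0.481% ± 0.0302 with Dex and 0.319% ± 0.00605 with the combination. In MM1R they took 0.808% ± 0.00468, 0.502% ± 0.0198, 0.793% ± 0.0444 and 0.498% ± 0.00304. LDHA reached −2.72 ± 0.11 in MM1S and −1.14 ± 0.10 in MM1R. EGLN3 was one of the members higher in MM1S, from 3 and 4 counts to 8 and 15, and the other was P4HA1 (1.21 ± 0.11).

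Whether the TAK-981 effect in MM1S differed with and without Dex was tested as an interaction (combination minus Dex, less TAK-981 minus vehicle). It was positive and past the threshold for 5 of 36 members, P4HA1 (1.39 ± 0.15, adjusted p = 1.74e-05), ANKRD37 (0.81 ± 0.18, adjusted p = 0.00527), BNIP3L (0.59 ± 0.11, adjusted p = 0.00215), KDM3A (0.44 ± 0.10, adjusted p = 0.00508) and PDK3 (0.36 ± 0.10, adjusted p = 0.0158), and for no enzyme. Over all genes the share was 14.9%, of which 5.47% positive and 9.48% negative. The interaction draws on the contrast in view when the genes were chosen. Under some alternative settings the enzymes ENO2 and PFKM passed too. With 1 library left out, their interactions ran from 0.080 to 0.36 and from −0.34 to −0.16. In MM1R 0 members and 0 genes were called, with 2 members and 400 genes at an unadjusted p under 0.05. The PDK3 call was lost without MM1S vehicle replicate 1 (adjusted p = 0.103), without MM1S Dex replicate 2 (adjusted p = 0.0755) or without MM1S combination replicate 2 (adjusted p = 0.0645). The count of 5 was 8 without MM1S TAK-981 replicate 1 and 14 without replicate 2.

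**Figure D4:**
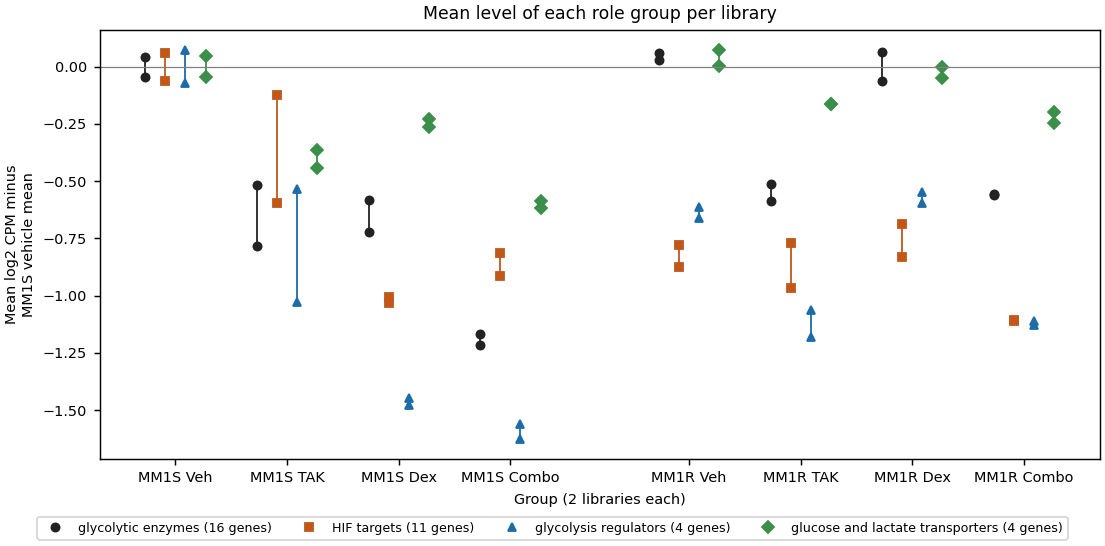
Mean log2 CPM of each role group in each of the 16 libraries, relative to the mean of the MM1S vehicle libraries. In MM1S the mean of the enzymes is lowest with the combination, and in MM1R they lie lowest in the TAK-981 and combination libraries.

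The makeup of paired isozymes is given as the ratio of CPM per kb (mean ± SD, n = 2, a description without a test). LDHA to LDHB was 1.10 ± 0.114 in MM1S with vehicle, 0.591 ± 0.0690 with TAK-981, 0.450 ± 0.0123 with Dex and 0.298 ± 0.0336 with the combination, and in MM1R 0.689 ± 0.00563, 0.570 ± 0.0286, 0.732 ± 0.00777 and 0.489 ± 0.00555. In MM1S the ratio was lowest with the combination and in every treated group below vehicle. SLC16A3 to SLC16A1 went the other way, from 0.429 ± 0.00595 with vehicle to 0.700 ± 0.0495 with TAK-981 and 0.954 ± 0.0157 with the combination in MM1S, with 0.464 ± 0.0279 for Dex. In MM1R it went from 0.163 ± 0.00332 to 0.402 ± 0.0159 and 0.387 ± 0.00401, with 0.175 ± 0.0118 for Dex. In the same order of vehicle, TAK-981, Dex and combination, HK2 to HK1 was 2.69 ± 0.407, 1.19 ± 0.133, 1.69 ± 0.0319 and 1.10 ± 0.0236 in MM1S, and 2.04 ± 0.0131, 1.60 ± 0.0236, 2.16 ± 0.0371 and 1.51 ± 0.0219 in MM1R. PFKM to PFKL was 0.645 ± 0.0304, 0.991 ± 0.0893, 0.620 ± 0.0134 and 0.799 ± 0.0101 in MM1S, and 0.782 ± 0.00459, 1.03 ± 0.0264, 0.747 ± 0.0129 and 1.08 ± 0.00932 in MM1R.

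HIF1A, the oxygen-labile HIF subunit, is controlled mostly at the protein level, which was not measured. In MM1S its RNA stood at 68.4 and 63.1 CPM with vehicle, 60.3 and 48.5 CPM with TAK-981, 49.3 and 45.8 CPM with Dex and 44.8 and 48.3 CPM with the combination. In MM1R it stood at 58.1 and 56.8 CPM with vehicle, 57.0 and 56.4 CPM with TAK-981, 55.3 and 53.7 CPM with Dex and 61.0 and 57.3 CPM with the combination. It fell with Dex in MM1S (−0.47 ± 0.086, adjusted p = 0.000232), was not called with Dex in MM1R (−0.076 ± 0.084) and was not called for the combination against Dex in either line (−0.031 ± 0.088 and 0.12 ± 0.084).

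Other genes of the pathway, for the combination against Dex, came from 6 lists written with earlier results known. Their counts stand beside 25.4% of all genes falling and 22.2% rising in MM1S, and 25.3% and 23.1% in MM1R. Of 9 tested genes of the HIF machinery, 3 rose and 1 fell in MM1S and 3 rose and 1 fell in MM1R: ARNT2, a partner subunit of HIF alpha, fell in both (−1.54 ± 0.14, adjusted p = 6.35e-08, and −1.14 ± 0.15, adjusted p = 6e-06), and EPAS1, a second alpha subunit, rose in MM1S (0.73 ± 0.10, adjusted p = 8.51e-06) and was not called in MM1R (−0.0092). CITED2 rose in MM1R (0.27 ± 0.061, adjusted p = 0.00106), and in MM1S its mean was 148 CPM with Dex and 145 CPM with the combination. Of 24 other hypoxia-induced genes, 6 rose and 8 fell in MM1S and 3 rose and 12 fell in MM1R, among them HMOX1, the heme oxygenase, which fell in both (−2.19 ± 0.14, adjusted p = 4.14e-10, and −0.49 ± 0.10, adjusted p = 0.000722). AK4, a mitochondrial adenylate kinase, fell in both as well (−1.58 ± 0.31, adjusted p = 0.000555, and −2.79 ± 0.23, adjusted p = 3.19e-08). KDM4C rose in MM1S (0.50 ± 0.067, adjusted p = 6.9e-06), and TFRC fell in MM1R (−0.44 ± 0.054, adjusted p = 2.51e-06). The other line moved the same way without overlap. Mean KDM4C went from 48.0 CPM with Dex to 65.0 CPM with the combination in MM1R, and TFRC from 211 to 161 CPM in MM1S. Of 19 other glycolytic isozymes and regulators, 4 rose and 7 fell in MM1S and 5 rose and 6 fell in MM1R. FBP1, the gluconeogenic phosphatase that opposes phosphofructokinase, rose in both (1.23 ± 0.16, adjusted p = 5.87e-06, and 2.06 ± 0.15, adjusted p = 3.25e-09), from 2.52 ± 0.566 to 5.93 ± 0.325 CPM in MM1S and from 2.01 ± 0.0600 to 8.42 ± 0.0616 CPM in MM1R. PFKFB2 rose in MM1S (0.58 ± 0.053, adjusted p = 4.88e-08), and PGM1 fell in MM1R (−0.60 ± 0.096, adjusted p = 4.11e-05). Here too the other line moved alike without overlap. Mean PFKFB2 went from 59.8 CPM with Dex to 74.7 CPM with the combination in MM1R, and PGM1 from 45.9 to 33.9 CPM in MM1S.

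Of 8 pentose phosphate genes, 1 rose and 4 fell in MM1S and 1 rose and 4 fell in MM1R, with the phosphogluconate dehydrogenase PGD falling in both lines (−0.61 and −0.69) and H6PD, a pentose phosphate enzyme of the endoplasmic reticulum, rising in both (0.58 and 0.72). TALDO1 fell in MM1S (−0.60), and in MM1R its mean went from 137 CPM with Dex to 101 CPM with the combination, without overlap. Of 12 genes that carry pyruvate to acetyl-CoA, 4 rose and 4 fell in MM1S and 3 rose and 5 fell in MM1R, with the mitochondrial pyruvate carrier subunit MPC2 falling in both (−0.45 and −0.37) and its partner MPC1 falling in MM1R (−0.97, with −0.31 in MM1S, not called). DLAT fell in MM1S (−0.33), and in MM1R its mean went from 103 CPM with Dex to 79.7 CPM with the combination, without overlap. Of 6 regulators often named beside glycolysis, 1 rose and 1 fell in MM1S and 2 rose and 1 fell in MM1R. MYC, which activates many glycolytic genes, fell in both (−0.79 ± 0.062, adjusted p = 7.15e-09, and −0.48 ± 0.062, adjusted p = 4.31e-06), and TXNIP, which restrains glucose uptake, rose in both (0.74 ± 0.066, adjusted p = 3.82e-08, and 1.64 ± 0.068, adjusted p = 1.23e-12). With Dex alone in MM1S, where most enzymes fell, MYC was higher, at 354 and 356 CPM with vehicle and 456 and 471 CPM with Dex. TXNIP was higher there too, at 726 and 615 CPM and 1854 and 1971 CPM. Whether either gene has a part in the enzyme levels was not tested.

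Across the 16 libraries, which share groups and therefore give a description only, the members tracked the mean of the enzymes unequally. With the mean of the other enzymes, Pearson's r was 0.992 for ALDOA, 0.991 for PKM and 0.990 for ENO2, and 0.34 for PFKL and −0.055 for PFKM. Outside the enzymes, with the mean of all enzymes, ADM had 0.94, KDM3A 0.018, P4HA1 −0.52 and SLC16A3 −0.58. Of all genes that are not members, those most like the enzyme mean were EBP, a sterol isomerase (r = 0.992), PDIA6, a protein disulfide isomerase (0.988), the cytokine MIF (0.987), the histone methyltransferase NSD2 (0.986) and the histone H2AFZ (0.985).

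On hg19, the build given in the submitters' processing notes, the genes whose values are printed most often lie at chr11:18415936-18429765 (LDHA), chr12:6643585-6647537 (GAPDH), chr17:80186282-80197375 (SLC16A3) and chr10:74766980-74856732 (P4HA1), as whole gene spans in the table.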

How the data were processed

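Per the labels, the authors extracted total RNA, and per their processing notes reads were handled with bcl2fastq 2.18.0.12, STAR 2.6.0, HTSeq 0.6.0 and edgeR 3.28.1 on hg19. The deposited values are raw counts per gene, not normalized, in 1 table of 23354 genes and 16 libraries. The table was analysed with R 4.3.3 and edgeR 4.0.16: genes were kept by filterByExpr (minimum count 10, minimum total 15), scaled by TMM, and fitted in a robust quasi-likelihood model with 1 term for each of 8 groups (8 residual degrees of freedom). P-values were adjusted by Benjamini-Hochberg over all 14215 genes for each contrast, with a threshold of 0.05, and the SE is the log2 fold change divided by the root of F. Levels (CPM) are counts scaled to a common effective library size; log2 levels used a prior count of 2. Replicates of a group were treated as separate samples.

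The members, roles and other lists were chosen with earlier results of these data known. Values in every library are given for HIF1A and GAPDH, for the members with the lowest and highest mean change for the combination against Dex in each role, for members whose TAK-981 effect differed between lines and for the 3 smallest adjusted p-values of each of 3 further comparisons; from the other lists, the 2 smallest per line. Alternatives were RLE scaling, library size only, TMM without the members, no filter, a replicate block, DESeq2 1.42.0, a fit of the compared groups and leaving out each library. On simulated counts for the combination against Dex in MM1S (13887 genes), the test recovered 70% of 1.5-fold and 85% of 2-fold changes with 4 false calls. The simulation gave a gene the same spread in every group. In the data, MM1S Dex replicates differed more than MM1S combination replicates (chi-square over degrees of freedom 20.5 against 4.88). These rates therefore need not hold for the real contrast. Promoter sequence is from RefSeq, GRCh38.p14.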

Additional observations from a re-analysis of the deposited data

Results flagged for a closer look

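Effects that differed between the lines were picked out where the difference, MM1R minus MM1S on the log2 scale, passed the adjusted threshold of the edgeR fit. With 2 libraries a group, no search for a library far from its group was possible. For TAK-981 against vehicle these were SLC16A3 (0.58, adjusted p = 0.00791), BNIP3L (0.70, adjusted p = 0.00173), P4HA1 (0.66, adjusted p = 0.0265) and KDM3A (0.51, adjusted p = 0.00481), all more positive in MM1R; this difference is built from the contrast in view when the genes were chosen, and the P4HA1 call was lost with 5 of the 8 libraries left out in turn. For the combination against Dex they were PDK3 (−0.43, adjusted p = 0.00473), P4HA1 (−1.03, adjusted p = 0.000232) and ANKRD37 (−1.003, adjusted p = 0.00111), all with a more negative effect in MM1R. Enzymes were absent from both lists in the main fit. Under some alternative settings LDHA, ENO2 and PFKM passed for TAK-981 against vehicle. ENO2 also did for the combination against Dex.

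For Dex against vehicle, 27 members differed, in a comparison that uses the vehicle libraries of the contrast in view when the genes were chosen. The enzymes among them were HK2 0.66, GPI 0.52, ALDOA 0.71, ALDOC 1.48, TPI1 0.87, GAPDH 0.66, PGK1 0.43, PGAM1 0.70, ENO2 0.92, PKM 0.94 and LDHA 1.59. The regulators were PFKFB3 0.68, PFKFB4 3.86, PDK1 0.95 and PDK3 0.71, and the transporter SLC16A1 gave 0.29. The HIF targets were VEGFA 2.25, BNIP3L 1.13, ADM 0.77, EGLN1 0.31, P4HA1 −0.52, P4HA2 0.88, NDRG1 1.23, ANKRD37 1.68, MIR210HG 4.12 and KDM3A 0.80, and HIF1A gave 0.39. P4HA1 was the member with a negative difference, its RNA having risen with Dex in MM1S.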

How the results depend on the processing

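No called value changed direction under the alternatives run. Values that were not called changed sign for the line difference of TAK-981 in VEGFA (0.21 against −0.0062 without MM1S TAK-981 replicate 1) and ENO2 (−0.12 against 0.031 without replicate 2), and the enzyme median of the vehicle lines went from 0.028 to −0.037 with library size only. RLE scaling, library size only, TMM without the members and DESeq2 kept the member counts within 1.5 times and every list median within the spread between replicates. The count of members called moved for the combination against TAK-981 in MM1R, from 0 to 1 (MIR210HG, lower) without the filter and with the fit of only the groups compared; for the vehicle lines, from 20 to 31 with only the groups compared; for the line difference of TAK-981, from 4 to 10 without the filter and 8 with a replicate block; for the line difference of the combination against Dex, from 3 to 5 with the block; and for the interaction in MM1S, from 5 to 10 without the filter. Leaving out 1 library at a time, these counts ran from 2 to 13 (line difference of TAK-981), 3 to 5 (line difference of the combination against Dex) and 4 to 14 (interaction); enzyme medians ran from −0.84 to −0.59 (TAK-981, MM1S), −0.66 to −0.46 (combination against Dex, MM1S) and −0.76 to −0.59 (Dex, MM1S), and HIF target medians from −0.39 to −0.14 (TAK-981, MM1S) and −0.88 to −0.54 (vehicle lines); the cause was not tested. A group left with 1 library was assumed to vary like the others. Among values of single named members, 53 calls were lost with 1 library left out, 14 with only the groups compared, 6 with the block, 5 with DESeq2, 3 without the filter and 1 with library size only. Calls were also gained: 12 without the filter, 8 with the block, 6 with only the groups compared and 4 with DESeq2. RLE scaling and library size only gained 3 each, and leaving out 1 library gained some as well. Replicate numbers were shared by the groups, but the correlations of same-numbered deviations were −0.013 to 0.263, so the numbers were not taken as pairs. With the block, the calls were lost for PFKFB4 (adjusted p = 0.0548) and P4HA1 (0.0642) for the combination against Dex in MM1R, LDHA between the vehicle lines (0.0724) and the P4HA1 line difference of TAK-981 (0.0927). In the contrast in view when the genes were chosen, MIR210HG in MM1S and PFKFB4 in MM1R also dropped below the threshold with the block. With the block, 25 members were called for the combination against Dex in MM1S and 29 for TAK-981 in MM1S. With 2 libraries a group and few reads for EGLN3, small changes were not detectable.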
